A study of Mus musculus with 2 samples.

Results

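*Ntrk2* and the 5 genes that accompanied it in endothelial cells (ECs) of a hypoxic mouse lung library, *Cdk19*, *Mal*, *Wfdc1*, *Tubb2b* and *Gdpd3*, were followed through every cell class of both libraries. These are 6 of the 31053 genes in the count matrices, and 6 of the 14935 genes with a transcript in at least 3 of the cells kept here. They were picked by name because their level in ECs was much higher in the hypoxia library than in the normoxia library, so that contrast is given below as a description and supports nothing. Where the transcripts lay among EC subtypes of the same library, and how they fell together in 1 cell, were not the contrast used. They are not independent of it in the hypoxia library. General capillary-like cells (defined below) hold 1481301 of the 2044787 transcripts counted in its EC-like cells, so the choice favored genes high in them. It also favored genes found in many cells. The study asked how lung pericytes take part in vascular remodeling, and its single-cell data compare lungs in room air with lungs after hypoxia. Lungs of C57/B6 mice aged 2 to 4 months were dissociated, cells bearing CD45 (leukocytes) or CD326 (epithelium) were depleted on beads, and the rest were captured with a 3′ Chromium kit. The normoxia group was 1 library of such cells and the hypoxia group was 1 library after 3 weeks at 10% inspired oxygen. The animals were wild type, no transgene is named, and 3 of them were exposed to hypoxia. How these were divided over the library, and how many animals lie behind the normoxia library, is not stated.

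*Ntrk2* encodes TrkB, the receptor tyrosine kinase of brain-derived neurotrophic factor and neurotrophin 4, known best in neurons, and it is also made as shorter forms that lack the kinase domain. *Cdk19* encodes a kinase of the Mediator complex that stands in for Cdk8. *Mal* encodes a proteolipid of membrane rafts first known in T cells, myelin and apical transport in epithelia. *Wfdc1* encodes a secreted protein with a whey acidic protein domain, *Tubb2b* a beta-tubulin known from the developing nervous system, and *Gdpd3* a glycerophosphodiester phosphodiesterase with lysophospholipase D activity. Alveolar capillaries are lined by general capillary cells, which carry Gpihbp1 and Aplnr and act as progenitors, and by aerocytes, large thin cells with Car4 and Ednrb that lie against the air space. Larger vessels are lined by arterial cells with Gja5 and Bmx and by Vwf-rich venous and other macrovascular cells.

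Each captured transcript carried a unique molecular identifier (UMI), so UMIs count molecules. After filtering, 1348 of 2223 normoxia cells and 689 of 809 hypoxia cells were kept, with 5173361 and 2294966 UMIs, and the libraries shared 1 cell barcode. EC-like cells, named from markers, were 837 in normoxia (3529774 UMIs, median 3912 per cell) and 559 in hypoxia (2044787 UMIs, median 2831 per cell). A level below is the UMIs of a gene summed over a group of cells, per 1000000 UMIs of those cells (CPM). With 1 library per condition no test was possible, hypoxia and library cannot be told apart, and all intervals (exact 95%: Poisson for levels, conditional binomial for ratios, Clopper-Pearson for shares) cover counting error only. The Y-linked gene *Ddx3y* had 629 normoxia and 221 hypoxia UMIs, and *Xist* had 1 UMI in each library, so both libraries carried Y-linked and hardly any *Xist* transcripts.

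In the GENCODE annotation of GRCm38, *Ntrk2* lies on the plus strand at chr13:58806569-59133970 with 10 transcripts that have 9 different 3′ ends and, where coding, 466 to 821 codons. A 3′ count summed over the gene does not tell the kinase-bearing form from the shorter ones. *Cdk19* lies at chr10:40339564-40483818 (plus strand), *Mal* at chr2:127633226-127656695 (minus), *Wfdc1* at chr8:119666365-119688222 (plus), *Tubb2b* at chr13:34126748-34130466 (minus) and *Gdpd3* at chr7:126766334-126775649 (plus). *Gdpd3* starts 514 bases after the annotated end of *Mapk3* on the same strand. EC-like cells held *Mapk3* at 301 CPM (normoxia) and 411 CPM (hypoxia), which is 1.37-fold (interval 1.25 to 1.5) against 21.4 for *Gdpd3*. Antisense genes overlap *Ntrk2*, *Cdk19* and *Wfdc1*, and the 4 of them that were read out had at most 5 UMIs in the EC-like cells of a library. In addition, 1 opposite-strand gene overlaps *Gdpd3*, and 1 same-strand gene and a further opposite-strand gene (*Gm34245*) overlap *Ntrk2*. No level is reported here for any of these.

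Because the 6 genes were high in the same library, the sequence just upstream of their start sites is shown for the 3 that the RefSeq promoter table (GRCm38.p6) holds, *Ntrk2*, *Mal* and *Gdpd3*. *Cdk19*, *Wfdc1* and *Tubb2b* are named only. Each line runs 5′ to 3′ on the strand of the gene, from chr13:58806319-58806471 for *Ntrk2*, chr2:127656696-127656945 for *Mal* and chr7:126766164-126766333 for *Gdpd3*. Capitals mark ACGTG or GCGTG on either strand (CACGT or CACGC as printed), the core letters of a hypoxia response element, with matches that overlap counted separately.
Ntrk2: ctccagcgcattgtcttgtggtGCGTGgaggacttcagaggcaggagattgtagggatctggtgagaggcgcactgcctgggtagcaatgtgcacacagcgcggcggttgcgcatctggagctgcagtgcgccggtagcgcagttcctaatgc
Mal: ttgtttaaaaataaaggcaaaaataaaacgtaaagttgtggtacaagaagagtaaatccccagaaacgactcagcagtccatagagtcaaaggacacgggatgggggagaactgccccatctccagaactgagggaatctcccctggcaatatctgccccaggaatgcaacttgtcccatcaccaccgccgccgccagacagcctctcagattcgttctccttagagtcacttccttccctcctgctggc
Gdpd3: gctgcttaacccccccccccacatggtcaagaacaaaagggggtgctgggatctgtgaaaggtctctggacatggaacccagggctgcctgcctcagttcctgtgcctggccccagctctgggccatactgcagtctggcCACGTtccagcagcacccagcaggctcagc
The printed *Ntrk2* and *Gdpd3* stretches each held 1 match, and the *Mal* stretch held 0. The full window runs from 250 bases before to 50 bases after the start used in the promoter table. For *Ntrk2* and *Gdpd3* the printed stretch stops at an earlier annotated start, so the window holds more bases after that start. In the full window *Ntrk2* had 3 matches (all GCGTG), *Gdpd3* had 2 and *Mal* had 0. At least 1 match was present in 43.8% of the 32851 promoter windows of this length in the table, and at least 2 in 20.6%, so these letters are common. A match describes the sequence and is not evidence of binding.

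*Ntrk2* had 114 UMIs (32.3 CPM) in normoxia EC-like cells and 1625 UMIs (795 CPM) in hypoxia EC-like cells, 24.6-fold higher in the hypoxia library (interval 20.3 to 30.0). A UMI was found in 76 of the 837 normoxia cells (9.08%, interval 7.22 to 11.2) and in 376 of the 559 hypoxia cells (67.3%, interval 63.2 to 71.1). After each cell was thinned to 1000 UMIs, leaving out 48 normoxia and 93 hypoxia cells that were shallower, the shares were 3.42% and 49.8%. For background, the named classes other than ECs had a share of 0 of 205 normoxia cells (median 5371 UMIs), which allows up to 1.78% by the exact interval, and of 4 of 29 hypoxia cells (13.8%, median 1513 UMIs). The hypoxia UMIs were spread over cells: the cell with the most held 22, or 1.35% of the total, and 82 cells together held 50% of it.

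Over all EC-like cells, the 8700 genes with at least 50 UMIs had a hypoxia/normoxia ratio of at least 2 in 2.06% of cases and of at most 0.5 in 3.59%. All 6 members were past a ratio of 2, which the choice of the members fixed. *Cdk19* had 236 UMIs (66.9 CPM) in normoxia and 1509 UMIs (738 CPM) in hypoxia, 11-fold higher (interval 9.62 to 12.7). *Mal* had 7 UMIs (1.98 CPM) against 169 UMIs (82.6 CPM), 41.7-fold higher (interval 19.8 to 105) with the widest interval of the 6 because the normoxia count was small. *Gdpd3* had 10 UMIs (2.83 CPM) against 124 UMIs (60.6 CPM), 21.4-fold higher (interval 11.3 to 45.7). *Wfdc1* was readily detected in room air, with 289 UMIs (81.9 CPM) against 547 UMIs (268 CPM) in hypoxia, 3.27-fold higher (interval 2.83 to 3.78). *Tubb2b* likewise had 70 UMIs (19.8 CPM) against 151 UMIs (73.8 CPM), a ratio of 3.72 (interval 2.79 to 5.02). Of the 837 normoxia cells, 6 had a *Mal* UMI, 9 a *Gdpd3* UMI, 59 a *Tubb2b* UMI, 132 a *Cdk19* UMI and 193 a *Wfdc1* UMI, so none of the 6 was confined to the hypoxia library.

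EC-like cells were divided by marker UMIs into aerocyte-like (116 normoxia, 53 hypoxia cells), general capillary-like (602 and 425), arterial-like (19 and 7) and Vwf-high cells (66 and 43), and 65 cells were left ungated. Of the gate genes, whose difference the gates fix, *Car4* stood at 2853 (normoxia) and 3649 CPM (hypoxia) in aerocyte-like cells. General capillary-like cells held it at 130 and 205 CPM, and *Gpihbp1* stood at 105 and 94.3 CPM against 1320 and 1124 CPM. Outside the gate lists, *Kdr* stood at 3569 and 3190 CPM in aerocyte-like cells against 518 and 321 CPM in general capillary-like cells. *Plvap* stood at 40.4 and 9.12 CPM against 1264 and 115 CPM. Of the 1196 capillary cells, 24 had a mixed marker share of 30 to 70%. The arterial-like group is small, and only 15 of the 35 cells of the Bmx- and Gja5-led cluster fell in the gate.

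In the normoxia library *Ntrk2* was higher in general capillary-like than in aerocyte-like and Vwf-high cells. It had 105 UMIs there (44.9 CPM, interval 36.8 to 54.4), 6 in Vwf-high cells (17.4 CPM, interval 6.38 to 37.8), 1 in arterial-like cells (8.13 CPM, interval 0.206 to 45.3) and 2 in aerocyte-like cells (2.89 CPM, interval 0.350 to 10.4). The ratio of general capillary-like over aerocyte-like cells was 15.6 (interval 4.2 to 130), and that over Vwf-high cells 2.59 (interval 1.15 to 7.21). The arterial-like interval overlapped those of all 3 other groups, with an arterial over general capillary ratio of 0.181 (interval 0.00454 to 1.03), and the Vwf-high and aerocyte-like intervals overlapped as well.

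In the hypoxia library *Ntrk2* had 1458 UMIs in general capillary-like cells (984 CPM, interval 934 to 1036) and 30 in the 7 arterial-like cells (991 CPM, interval 668 to 1414), levels that do not differ beyond counting error. Vwf-high cells followed with 73 UMIs (453 CPM, interval 355 to 570) and aerocyte-like cells with 54 UMIs (164 CPM, interval 123 to 214). With these gates each of the last 2 intervals lay apart from its neighbors in the order. With subtypes named by cluster it did not: Vwf-high cells had 19 UMIs (194 CPM, interval 117 to 302) and aerocyte cells 56 (166 CPM, interval 125 to 216), a ratio of 1.17 (interval 0.654 to 1.99), and the general capillary over Vwf-high ratio moved from 2.17 to 5.03. By gate, the ratio of general capillary-like over aerocyte-like cells was 5.99 (interval 4.57 to 8.02). Every subtype was thus higher in the hypoxia library than its normoxia counterpart, from 21.9-fold in general capillary-like cells (interval 18.0 to 27.0) and 26.1-fold in Vwf-high cells (interval 11.4 to 73.3) to 56.9-fold in aerocyte-like cells (interval 15 to 481) and 122-fold in arterial-like cells (interval 20.2 to 4968), with intervals that overlap. In general capillary-like cells 2.46% of 7698 genes were at least 2-fold higher in hypoxia, and in Vwf-high cells 4.04% of 1905 genes. The 6 members in the former and the 3 that reached 50 UMIs in the latter (*Ntrk2*, *Cdk19* and *Wfdc1*, mostly through their hypoxia UMIs) were past this fold, counts that the choice of the members fixed and from which nothing is read.

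**Figure D1:**
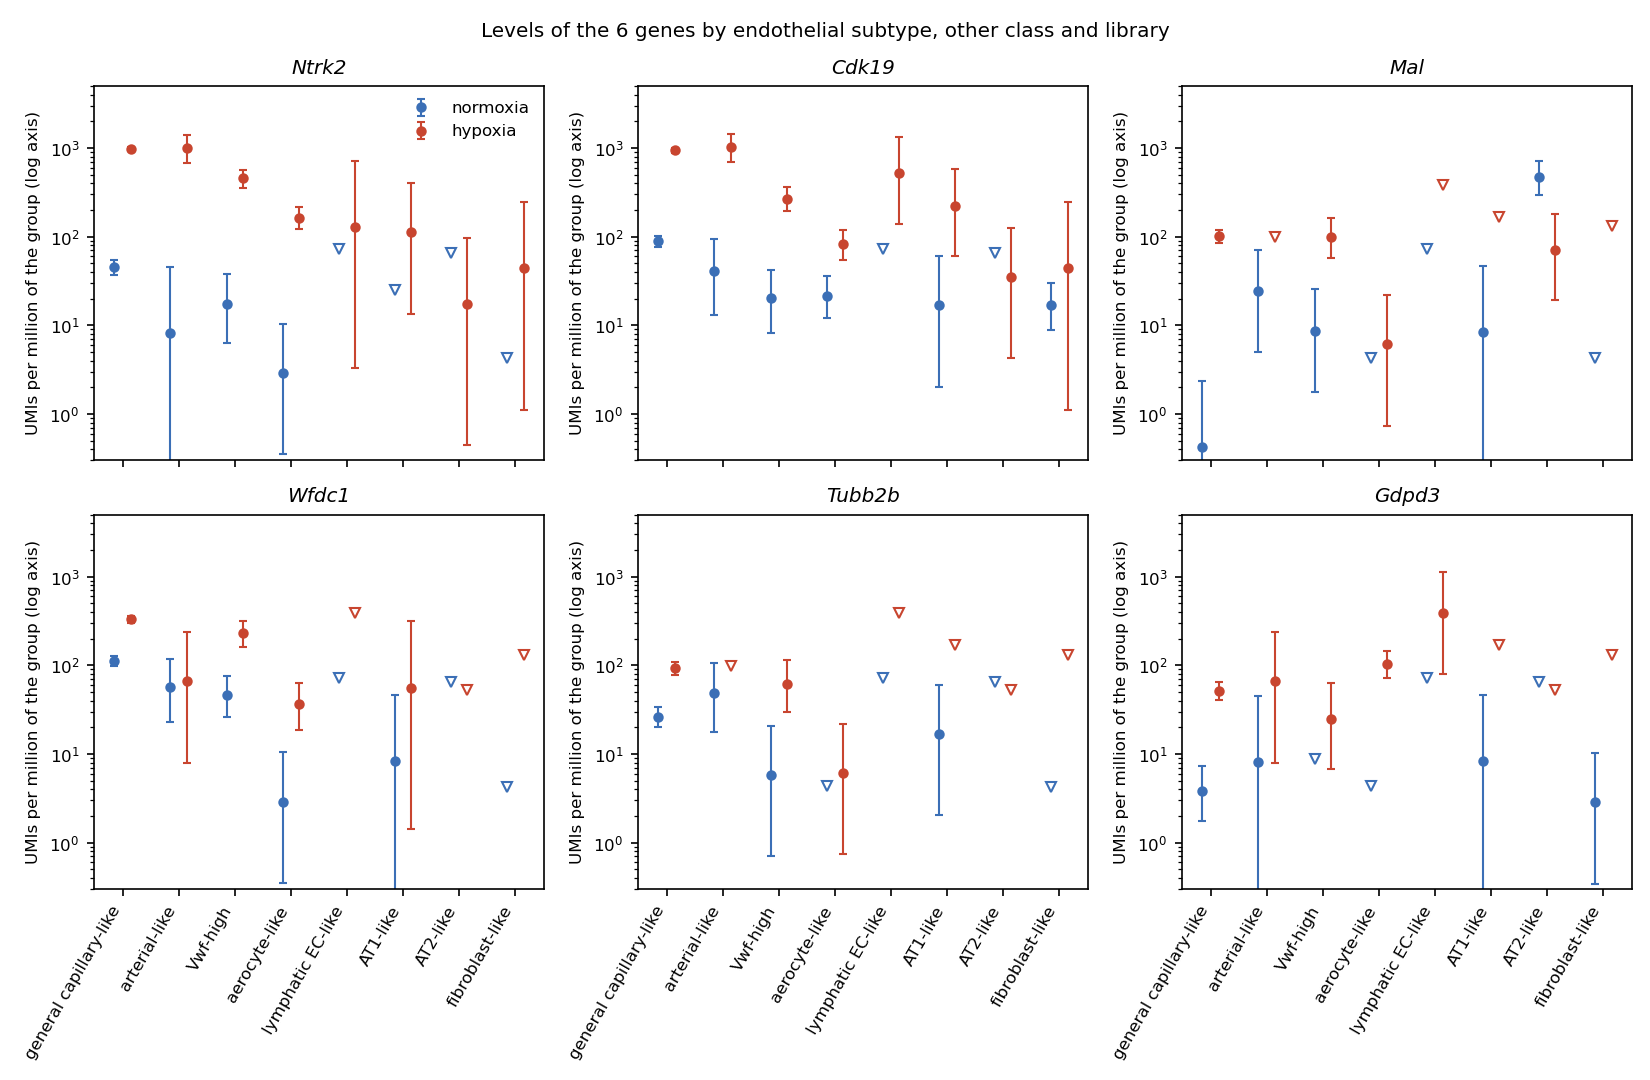
Level of each of the 6 genes (CPM of the group, log axis) in gated EC subtypes and in other classes of the normoxia (blue) and hypoxia (red) library. Bars are exact 95% Poisson intervals, and open triangles mark the level 3 counts would have where no UMI was found. *Ntrk2* in hypoxia stands at 984 CPM in general capillary-like and at 164 CPM in aerocyte-like cells, while *Gdpd3* is higher in aerocyte-like cells (103 CPM) than in general capillary-like cells (51.3 CPM).

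*Cdk19*, the Mediator kinase, had a like distribution. In normoxia it stood at 89.0 CPM in general capillary-like cells (208 UMIs, interval 77.3 to 102), 40.7 in arterial-like cells (5 UMIs, interval 13.2 to 94.9), 21.7 in aerocyte-like cells (15 UMIs, interval 12.1 to 35.7) and 20.3 in Vwf-high cells (7 UMIs, interval 8.15 to 41.8). In hypoxia it stood at 1024 CPM in arterial-like cells (31 UMIs, interval 696 to 1453), 937 in general capillary-like cells (1388 UMIs, interval 888 to 988), 267 in Vwf-high cells (43 UMIs, interval 193 to 359) and 82.1 in aerocyte-like cells (27 UMIs, interval 54.1 to 119). By gate, arterial-like and general capillary-like levels overlapped in both libraries. By cluster, the 16 hypoxia arterial cells had 120 UMIs (1423 CPM, interval 1180 to 1702) against 885 CPM in general capillary cells (interval 839 to 934), a ratio of 1.61 (interval 1.32 to 1.94), and Vwf-high cells stood at 91.7 CPM, level with aerocyte cells at 88.9 CPM. The gated hypoxia/normoxia ratio was 10.5 in general capillary-like cells (interval 9.09 to 12.2) and 3.79 in aerocyte-like cells (interval 1.95 to 7.67), and these 2 intervals do not overlap. General capillary-like cells hold most of the hypoxia UMIs of EC-like cells, so the choice of the members favored a high ratio in them. Nothing is read from the difference, and the hypoxia levels also depend on the gate, as given below. Among 3628 genes with at least 50 UMIs in aerocyte-like cells, 1.96% had a hypoxia/normoxia ratio of at least 2. *Ntrk2* was the 1 member that reached that count, and it was past the fold, again as the choice fixed.

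*Mal*, the raft proteolipid, was nearly absent from normoxia ECs, with 1 UMI in 602 general capillary-like cells (0.428 CPM), 0 UMIs in aerocyte-like cells, and 3 UMIs each in Vwf-high cells (8.69 CPM, interval 1.79 to 25.4) and arterial-like cells (24.4 CPM, interval 5.03 to 71.3). In hypoxia it stood at 101 CPM in general capillary-like cells (150 UMIs, interval 85.7 to 119) and 99.3 CPM in Vwf-high cells (16 UMIs, interval 56.8 to 161), which overlap, and at 6.08 CPM in aerocyte-like cells (2 UMIs, interval 0.737 to 22.0). No UMI was found in the 7 hypoxia arterial-like cells, where 3 counts would be 99.1 CPM. In normoxia the general capillary over Vwf-high ratio of *Mal* was 0.0492 (interval 0.000938 to 0.613). It rests on 1 UMI against 3, which is the floor used here, and the 3 lay in 2 of 66 Vwf-high cells. These are too few to describe a difference between the subtypes in normoxia. In hypoxia this ratio was 1.02 (interval 0.608 to 1.83).

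*Wfdc1* and *Tubb2b* were also higher in general capillary-like than in aerocyte-like cells of both libraries. *Wfdc1* had 263 UMIs in normoxia general capillary-like cells (113 CPM) and 2 in aerocyte-like cells (2.89 CPM), a ratio of 39.0 (interval 10.7 to 323). In hypoxia the levels were 331 and 36.5 CPM, 9.08-fold apart (interval 5.15 to 17.7), with 230 CPM in Vwf-high cells. *Tubb2b* had 61 UMIs in normoxia general capillary-like cells (26.1 CPM) and 0 UMIs in aerocyte-like cells. This is 6.03-fold the level that 3 counts would have in the latter, and the interval of the ratio starts at 4.75. In hypoxia the levels were 93.2 and 6.08 CPM, 15.3-fold apart (interval 4.16 to 128), with 62.1 CPM in Vwf-high cells. The 19 normoxia arterial-like cells held 6 *Tubb2b* UMIs (48.8 CPM, interval 17.9 to 106) and 7 *Wfdc1* UMIs (56.9 CPM, interval 22.9 to 117), and the 7 hypoxia arterial-like cells held 0 and 2. By cluster, the 16 hypoxia arterial cells held 7 *Tubb2b* UMIs (83.0 CPM) and 26 *Wfdc1* UMIs (308 CPM, interval 201 to 452), so the gated *Wfdc1* level of 66.0 CPM depends on the gate.

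*Gdpd3*, the lysophospholipase D, went the other way. In normoxia it had 9 UMIs in general capillary-like cells (3.85 CPM, interval 1.76 to 7.31), 1 in arterial-like cells, and 0 UMIs in aerocyte-like and Vwf-high cells. In hypoxia it had 34 UMIs in aerocyte-like cells (103 CPM, interval 71.6 to 144), 76 in general capillary-like cells (51.3 CPM, interval 40.4 to 64.2), 2 in arterial-like cells (66.0 CPM, interval 8.0 to 239) and 4 in Vwf-high cells (24.8 CPM, interval 6.76 to 63.5). The general capillary over aerocyte ratio was 0.496 (interval 0.327 to 0.767), while the arterial-like interval took in the levels of both. By cluster, arterial cells had 10 UMIs (119 CPM) and aerocyte cells 38 (113 CPM), a ratio of 1.05 (interval 0.468 to 2.15). In aerocyte-like cells its hypoxia level was 23.9-fold the level that 3 counts would have in normoxia, and the interval of the ratio starts at 18.4. In general capillary-like cells the ratio was 13.3 (interval 6.66 to 30.2), so the intervals overlap. The 34 UMIs lay in 16 of the 53 aerocyte-like cells.

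Among 7107 genes with at least 50 UMIs over general capillary-like and aerocyte-like cells of the normoxia library, 10.9% were at least 2-fold higher in the former. All 4 members that reached this count (*Ntrk2*, *Cdk19*, *Wfdc1* and *Tubb2b*) were among them. They reached it mostly through general capillary-like UMIs, from 61 against 0 for *Tubb2b* to 208 against 15 for *Cdk19*, which favors this direction. In the hypoxia library the share was 13.2% of 5525 genes, and 5 of the 6 members were among them, while *Gdpd3* was among the 7.67% that were at least 2-fold lower. Against Vwf-high cells, 7.12% of 6687 genes in normoxia and 7.16% of 5210 genes in hypoxia were at least 2-fold higher in general capillary-like cells, with 4 of 4 and 3 of 6 members (*Ntrk2*, *Cdk19* and *Gdpd3*, the last with an interval of 0.775 to 7.78 around 2.07). In all these comparisons the members found higher reached 50 UMIs mostly through general capillary-like cells, so nothing is read from their counts. In the hypoxia library *Cd74* stood at 334 CPM in aerocyte-like cells. It stood at 6197 CPM in general capillary-like, 3754 CPM in Vwf-high and 3269 CPM in arterial-like cells. Whether aerocyte-like cells made it or received RNA of other cells was not tested. The part of any carried RNA in the aerocyte-like levels of the members was not tested either. The ratios also depend on the gate: with *Sema3c* left out of the general capillary gate, a choice made after seeing the data, the hypoxia ratio of *Ntrk2* over aerocyte-like cells was 3.28 and that of *Cdk19* 2.67, and with up to 6000 detected genes allowed per cell they were 3.14 and 5.11. Naming subtypes by cluster gave 5.87 and 9.96. The ratios with few aerocyte-like UMIs moved further. Without *Sema3c* that of *Mal* went from 16.7 to 2.10, that of *Tubb2b* from 15.3 to 2.30 and that of *Wfdc1* from 9.08 to 3.63, and with up to 6000 genes they were 3.88, 4.25 and 4.26. All 3 kept intervals above 1. *Gdpd3* stood at 0.541 without *Sema3c*.

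Clusters were made without the 6 genes, and 10 EC-like clusters held 10 or more cells from each of the libraries. Within them *Ntrk2* was higher in the hypoxia cells in 10 of 10, with an interval above 1 in 9, and hypoxia levels ran from 75.3 to 961 CPM against 0 to 129 CPM in normoxia. *Cdk19* was higher in 10 of 10 (interval above 1 in 9), *Gdpd3* in 10 of 10 (6), *Mal* in 9 of 10 (4), *Wfdc1* in 9 of 10 (7) and *Tubb2b* in 8 of 10 (1). These clusters are parts of the contrast that chose the members, so the choice favored these directions and nothing is read from the counts. No such count was made for other genes. Clusters that came mostly from the normoxia library are given as examples. In the Hey1- and Plvap-led cluster, the 14 hypoxia cells had 878 CPM of *Ntrk2* and the 195 normoxia cells had 50.03 CPM, and in the cluster led by the early-response genes *Ier3* and *Socs3* the 15 hypoxia cells had 872 CPM and the 95 normoxia cells 44.6 CPM. In the arterial cluster led by *Bmx* and *Gja5* among others, 16 hypoxia cells had 65 UMIs (771 CPM) and 19 normoxia cells had 0 UMIs. The aerocyte cluster led by *Ednrb*, *Fibin* and *Apln* was low in *Ntrk2* (174 and 2.99 CPM) and held 33 *Gdpd3* UMIs in 38 hypoxia cells (106 CPM) and 0 in 95 normoxia cells.

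**Figure D2:**
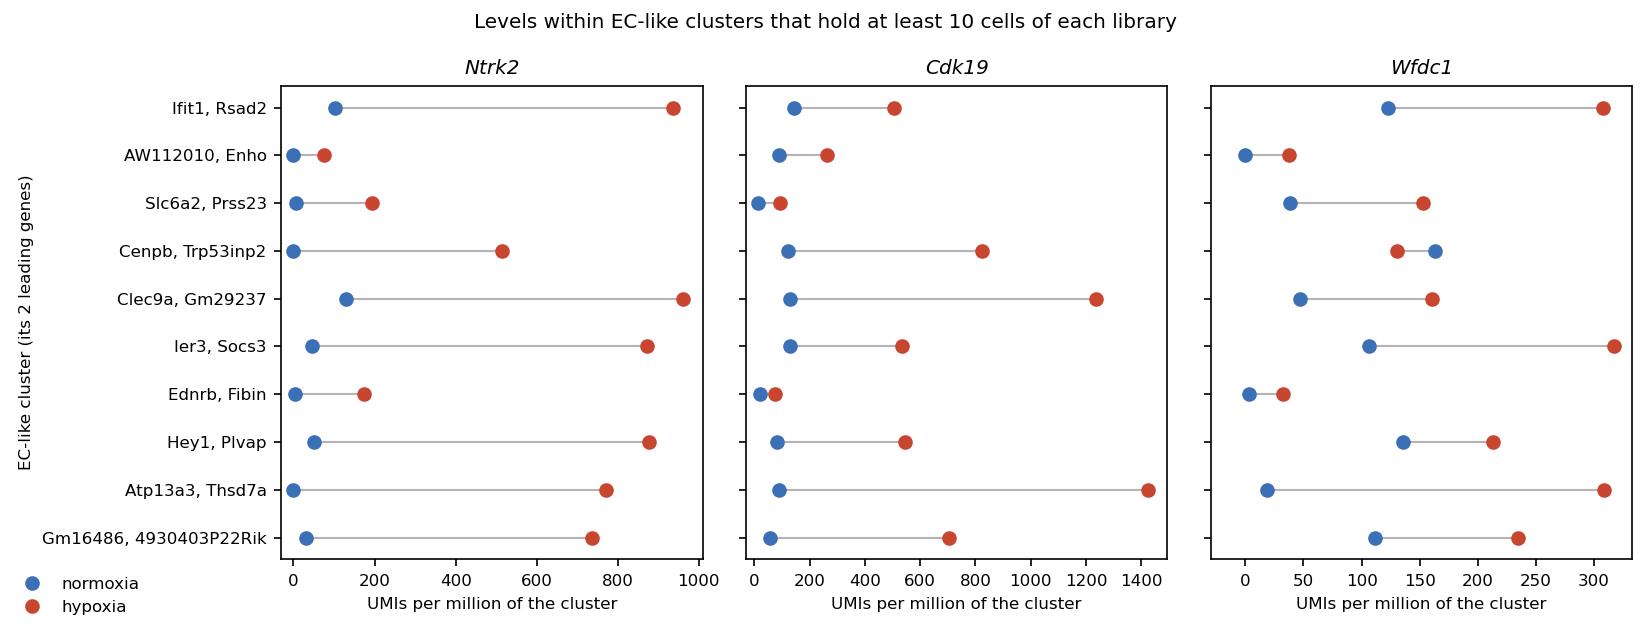
Level of *Ntrk2*, *Cdk19* and *Wfdc1* (CPM of the cluster's cells in a library, linear axes that differ between panels) in the 10 EC-like clusters to which both libraries gave 10 or more cells, named by 2 leading genes. Each line joins the normoxia (blue) and hypoxia (red) level of 1 cluster. *Ntrk2* and *Cdk19* are higher in hypoxia in all 10, and *Wfdc1* in 9.

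A further cluster of 162 hypoxia and 6 normoxia cells had *Ntrk2*, *Cdk19*, *Mal*, *Cd74* and *Wfdc1* as its leading genes. The members took no part in the clustering, but leading genes were ranked against all other cells, which came mostly from the normoxia library. The choice of the members thus favored their place among the leading genes of this cluster. *Ntrk2* was found in 157 of its hypoxia cells (996 UMIs, 1102 CPM), *Cdk19* in 144 (928 CPM), *Wfdc1* in 136 (387 CPM), *Tubb2b* in 54 (108 CPM), *Mal* in 46 (128 CPM) and *Gdpd3* in 21 (33.2 CPM). Its 6 normoxia cells had 8 *Ntrk2* UMIs in 4 cells (237 CPM, interval 102 to 467), 18 *Cdk19* UMIs in 5 cells (534 CPM, interval 316 to 844) and 7 *Wfdc1* UMIs in 4 cells (208 CPM, interval 83.5 to 428), with 0 UMIs of *Mal* and *Gdpd3*. Since the cluster is nearly all from 1 library, it was not read as a cell type.

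The number of members found in 1 cell depends on the share of cells with each member alone. The choice of the members raised these shares in hypoxia, so the counts describe the libraries and do not measure falling together. At least 2 of the 6 were found in 366 of 559 hypoxia EC-like cells (65.5%) and 105 of 837 normoxia cells (12.5%), and at least 3 in 229 (41.0%) and 28 (3.35%). No member was found in 66 hypoxia cells (11.8%) and 501 normoxia cells (59.9%), and all 6 were found in 3 hypoxia cells and in no normoxia cell. The number found follows depth, from a median of 1100 UMIs in hypoxia cells with none to 4752 in those with 4. After thinning to 1000 UMIs, at least 2 were found in 42.3% of 466 hypoxia cells and 2.03% of 789 normoxia cells.

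**Figure D3:**
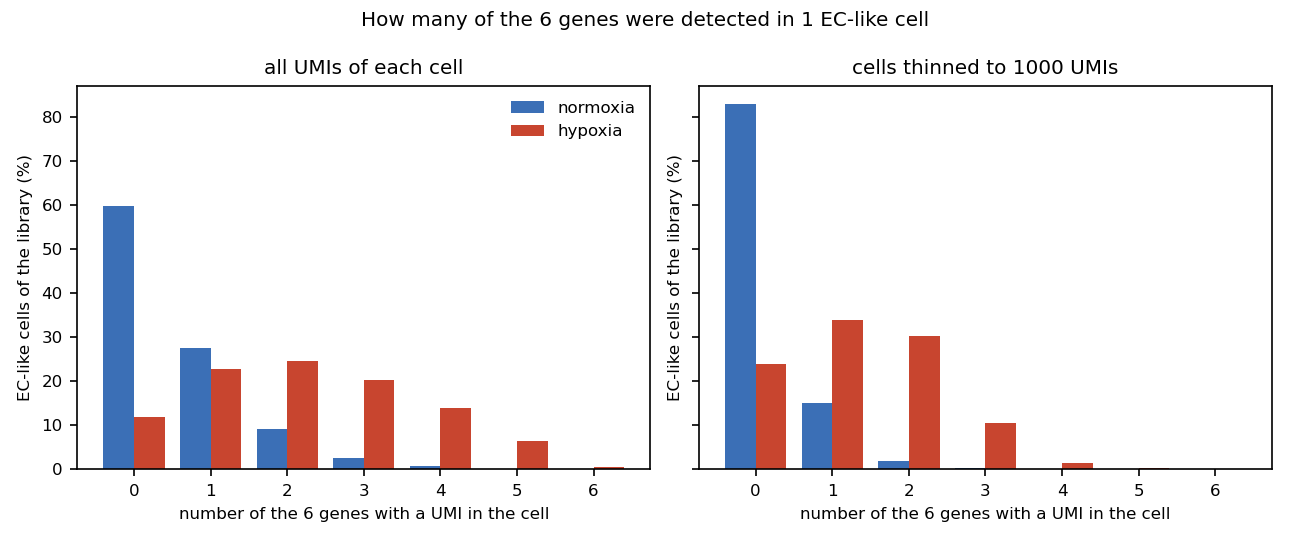
Share of EC-like cells (%, from 0) by the number of the 6 genes with at least 1 UMI in the cell, in the normoxia (blue) and hypoxia (red) library, with all UMIs (left) and after thinning to 1000 UMIs per cell (right). Most normoxia cells have none, while 65.5% of hypoxia cells have at least 2 with all UMIs and 42.3% after thinning.

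Co-detection was set against the product of the separate shares within the hypoxia library. *Ntrk2* and *Cdk19* were found together in 296 cells where 254 would follow from the separate shares, 1.17 times as many, and *Cdk19* was found in 78.7% of the cells with *Ntrk2* and 44.3% of those without. The figure was 1.29 for *Ntrk2* with *Mal* (73 cells), 1.28 with *Wfdc1* (207 cells), 1.33 with *Tubb2b* (84 cells) and 1.00 with *Gdpd3* (50 cells). The 10 pairs without *Gdpd3* all lay above 1, from 1.17 to 2.12, the highest being *Mal* with *Tubb2b* (30 cells where 14.1 would follow). The 5 pairs with *Gdpd3* ran from 0.964 to 1.26. After thinning, which left out the 93 shallower cells, the pairs without *Gdpd3* ran from 0.907 to 2.15, with 9 of 10 above 1 and *Ntrk2* with *Tubb2b* below it. The highest, *Mal* with *Tubb2b*, rests on 3 cells where 1.40 would follow. Counting intervals took in 1 for *Ntrk2* with *Mal* (0.528 to 1.87), *Wfdc1* (0.870 to 1.46) and *Tubb2b* (0.499 to 1.51). *Ntrk2* with *Cdk19* stood at 1.24 after thinning (132 cells, interval 1.06 to 1.43), and *Ntrk2* with *Gdpd3* at 0.670 (7 cells, interval 0.270 to 1.37). Pairs without *Ntrk2* were given no interval, so nothing is read from the count above 1.

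The same counts were made in the 425 general capillary-like hypoxia cells alone. *Ntrk2* with *Cdk19* then stood at 1.09 (263 cells where 242 would follow) and at 1.11 after thinning, and *Ntrk2* with *Wfdc1* at 1.2 and, after thinning, 1.01. *Mal* with *Wfdc1* stood at 1.64 (56 cells) and, after thinning, at 1.67 (8 cells). Of the 10 pairs without *Gdpd3*, 10 lay above 1 with all UMIs and 8 after thinning. In the normoxia library, 9 of these 10 pairs lay above 1 in EC-like cells, with *Ntrk2* and *Cdk19* together in 28 cells where 12.0 would follow (2.34). The pairs with *Mal* rest on 1 or 2 cells each there. After thinning, 5 of the 10 lay above 1, and *Ntrk2* and *Cdk19* were together in 4 cells where 1.47 would follow (2.72), too few to describe the pairs at that depth. In neither library was such a count made for pairs of other genes. With all UMIs the number of members found follows depth, and general capillary-like pairs were given no interval. Nothing is therefore read from the counts of pairs above 1.

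**Figure D4:**
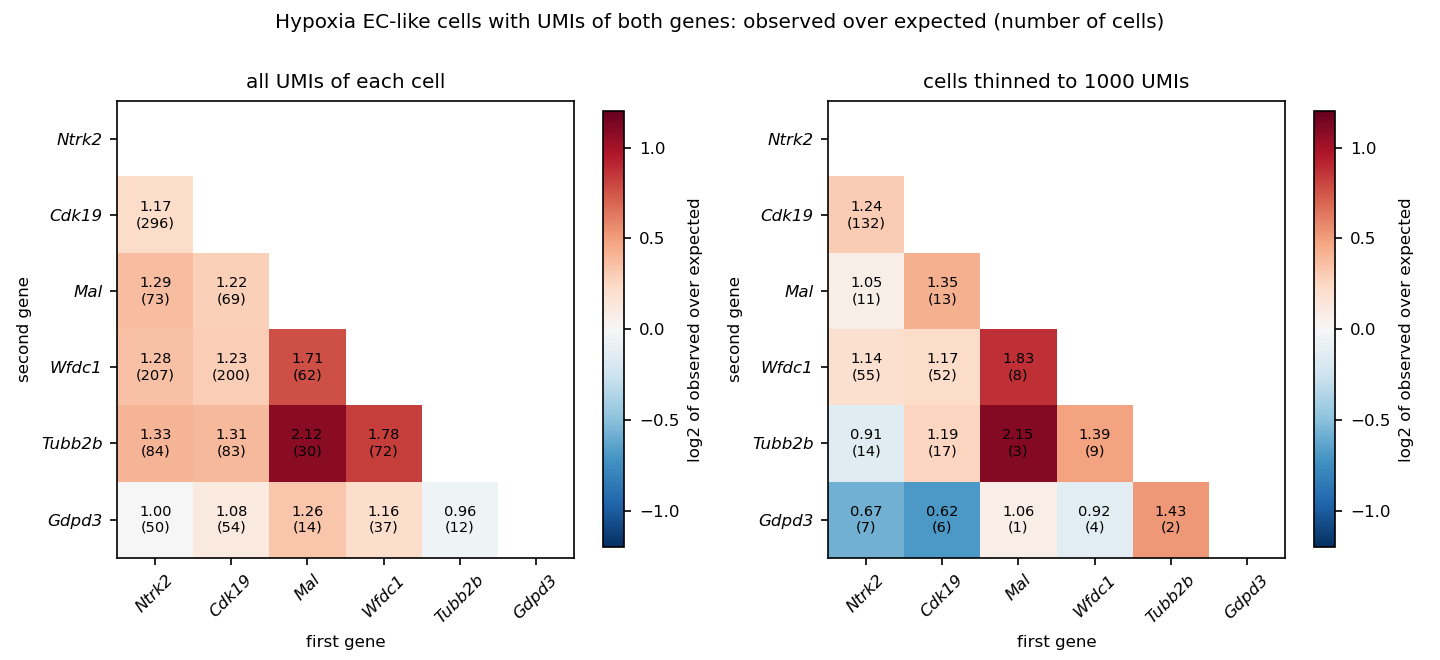
Hypoxia EC-like cells with UMIs of both genes of a pair, as observed over expected from the separate shares (color, log2 scale; numbers give the ratio, with the number of cells in parentheses), with all UMIs (left) and after thinning to 1000 UMIs per cell (right). With all UMIs the 10 pairs without *Gdpd3* are above 1, and after thinning *Ntrk2* with *Tubb2b* (0.91) is below it, with a counting interval that takes in 1. Pairs of other genes were not counted, so nothing is read from the number above 1.

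The genes whose log-normalized level followed that of *Ntrk2* most closely over the 466 hypoxia EC-like cells with at least 1000 UMIs were ranked by Pearson's r among 7589 genes found in at least 5% of these cells. The 10 highest were *Sema3c* (0.42), *Sparcl1* (0.39), *Cd93* (0.39), *Cxcl12* (0.38), *Cd74* (0.38), *Col4a1* (0.38), *H2-Eb1* (0.37), *Cdk19* (0.37), *H2-Ab1* (0.36) and *Ifngr1* (0.35). *Sema3c* and *Cxcl12* encode a secreted semaphorin and a chemokine, *Sparcl1* and *Col4a1* matrix proteins, *Cd93* a transmembrane EC glycoprotein, *Ifngr1* an interferon-gamma receptor chain, and *Cd74*, *H2-Eb1* and *H2-Ab1* parts of MHC class II antigen presentation. Among the members, *Cdk19* ranked 8th, *Wfdc1* 25th (r 0.27), *Tubb2b* 82nd (r 0.20), *Mal* 291st (r 0.14) and *Gdpd3* 7303rd (r -0.08). The r values are modest, the cells share 1 library, and *Sema3c* is also a gate gene of general capillary-like cells. Within the 359 general capillary-like hypoxia cells r was lower for all 10, from 0.19 for *Cd74* to 0.30 for *Col4a1*. The 10 were picked for the highest r over all hypoxia EC-like cells, which favors lower values in any other set. In 789 normoxia EC-like cells *Cxcl12* (r 0.27), *Cdk19* (0.24) and *Sema3c* (0.23) had ranks 3, 4 and 5. *Ntrk2* was found in 9.08% of all normoxia EC-like cells, so r there rests on few cells with it. Among the 10, only *Cd93* was lower in the hypoxia library, with 1230 CPM against 1819 CPM in normoxia, or 0.676-fold (interval 0.646 to 0.708). The others were higher there, *Sema3c* 1.67-fold and the rest at least 2-fold, from *Ifngr1* (2.10) upward, with *Sparcl1* at 9.55. Of all 8700 genes, 2.06% reached a ratio of 2. *Cdk19* is a member, so the choice fixed its ratio. The 7589 ranked genes were filtered on detection in hypoxia cells, which favors genes high there. The 8700 genes were filtered on UMIs of both libraries, so their share is not a matched background. Nothing is read from the number of the 10 that were higher in hypoxia. Whether following *Ntrk2* from cell to cell and being high in hypoxia go together over all genes was not tested.

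**Figure D5:**
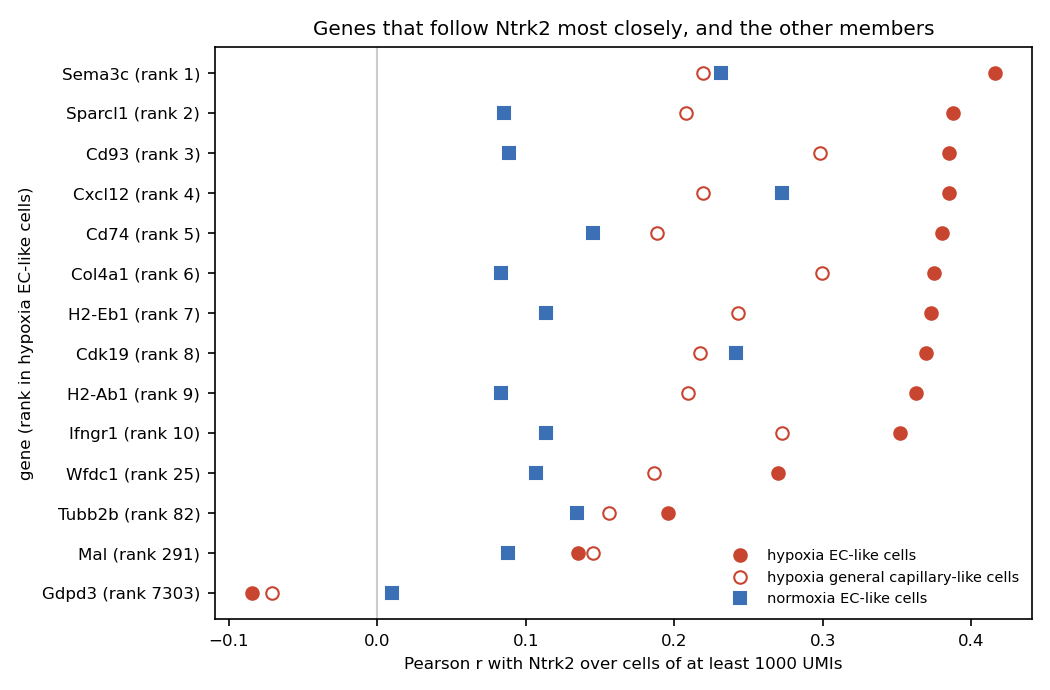
Pearson's r with *Ntrk2* (log-normalized levels, cells with at least 1000 UMIs) of the 10 most similar genes and the other members, over hypoxia EC-like cells (filled red), hypoxia general capillary-like cells (open red) and normoxia EC-like cells (blue). Most values within general capillary-like cells and in normoxia are below those over all hypoxia EC-like cells, and *Gdpd3* lies near or below 0 in all 3. The 10 were picked for the highest r over all hypoxia EC-like cells, which favors lower values in the other sets.

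Outside the EC-like class *Ntrk2*, *Cdk19*, *Wfdc1* and *Tubb2b* stood lower than in EC-like cells of the same library (for *Tubb2b* in hypoxia with overlapping intervals), *Gdpd3* had overlapping intervals in both libraries, and *Mal* was higher outside in normoxia (18.3 CPM, interval 12.3 to 26.1, against 1.98 CPM, interval 0.797 to 4.09). These 30 *Mal* UMIs lay in 6 cells, 1 of which held 17. All cells outside the EC-like class had 10 *Ntrk2* UMIs in 511 normoxia cells (6.08 CPM) and 73 in 130 hypoxia cells (292 CPM), but 68 of the 73 lay in cells of unnamed clusters, which carried the EC marker list at 5978 CPM. None lay in the unnamed cluster led by B cell and myeloid genes (3 hypoxia cells). In the 29 hypoxia cells of named classes other than ECs, *Ntrk2* had 4 UMIs (37.4 CPM, interval 10.2 to 95.8), *Cdk19* 8 (74.8 CPM, interval 32.3 to 147), *Mal* 4 (37.4 CPM), *Wfdc1* 5 (46.8 CPM) and *Tubb2b* 0, where 3 counts would be 28.1 CPM. *Gdpd3* had 5 UMIs (46.8 CPM, interval 15.2 to 109), which overlaps its level of 60.6 CPM in EC-like cells (interval 50.4 to 72.3). These 29 cells also held the EC marker list at 1132 CPM, against 15742 CPM in hypoxia EC-like cells. Whether EC RNA was carried into them, and its part in their levels, was not tested. In the 205 normoxia cells of such classes, *Ntrk2* had 0 UMIs, where 3 counts would be 2.68 CPM. *Cdk19* was found in 5 of these classes, with 20.5 CPM over them (23 UMIs, interval 13.0 to 30.8), of which 12 UMIs lay in fibroblast-like, 5 in SMC-like and 3 in pericyte-like cells. The leading genes of the SMC-like cells were *Hhip*, *Aspn* and *Lum*.

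Among the named classes outside ECs, *Mal* stood highest in AT2-like cells of the normoxia library. These 6 cells, alveolar epithelial cells with surfactant genes, had 22 *Mal* UMIs (476 CPM, interval 298 to 721), and the 8 hypoxia AT2-like cells had 4 (70.0 CPM, interval 19.1 to 179), or 0.147-fold (interval 0.0368 to 0.433). Of the 22 UMIs, 17 lay in 1 cell, and the intervals do not cover this spread between cells. The other 5 members had 0 UMIs in the normoxia AT2-like cells. Lymphatic EC-like cells had 0 UMIs of all 6 members in 11 normoxia cells, and in 5 hypoxia cells *Cdk19* had 4, *Gdpd3* 3 and *Ntrk2* 1. The pericyte-like class, the subject of the study, had 0 *Ntrk2* UMIs in 22 normoxia cells (3 counts would be 24.9 CPM) and 1 hypoxia cell, too few to describe hypoxia. A further cluster of 24 normoxia and 9 hypoxia cells was led by pericyte genes such as *Cox4i2* and *Notch3*. It also had 83.3% of the EC markers detected, so it stayed among the unnamed clusters.

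Genes related to each member by function or family were then compared between the libraries. Of 48 genes in 6 lists, 22 had at least 50 UMIs in EC-like cells, and 2 had a hypoxia/normoxia ratio of at least 2 and 0 a ratio of at most 0.5, against 2.06% and 3.59% of all 8700 genes. The median log2 ratio was 0.04 over all those genes. In the neurotrophin list 7 of 16 genes were tested and their median was -0.02 (ratios 0.814 to 1.16). Among the ligands, *Ntf3* and *Ntf5* were not detected in ECs at this depth, with 0 UMIs in both libraries, and *Bdnf* had 2 in normoxia and 0 in hypoxia, where 3 counts would be 0.850 and 1.47 CPM. The receptor *Ntrk3* also had 0 UMIs, and *Ngfr*, the low-affinity receptor, had 1 in each library. The adaptors and effectors of Trk receptors were present at like levels, with *Shc1* at 35.1 and 37.2 CPM, *Frs2* at 23.8 and 23.5 CPM, *Gab1* at 29.5 and 29.3 CPM, *Sh2b1* at 20.7 and 20.1 CPM, *Plcg1* at 105 and 122 CPM (ratio 1.16, interval 0.988 to 1.37) and *Kidins220* at 84.7 and 69.0 CPM (ratio 0.814, interval 0.662 to 0.998), and the sorting receptor *Sort1* at 20.1 and 19.1 CPM.

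The Mediator kinase module list had 5 of 6 genes tested, with a median of -0.45 and none past the fold. *Cdk8*, the paralog of *Cdk19*, stood at 41.6 CPM in normoxia and 24.9 CPM in hypoxia (ratio 0.599, interval 0.427 to 0.829), *Med13* at 111 and 80.7 CPM (0.727), *Med13l* at 144 and 106 CPM (0.734), *Ccnc* at 21.5 and 19.1 CPM (0.886) and *Med12* at 26.3 and 38.6 CPM (1.47, interval 1.07 to 2.00). Of the MAL family 4 of 6 were tested (median 0.43), and *Myadm* was past the fold with 134 and 307 CPM (2.29, interval 2.03 to 2.59), beside *Pllp* at 171 and 248 CPM (1.45), *Marveld1* at 111 and 139 CPM (1.25) and *Plp2* at 10.8 and 12.7 CPM (1.18). Of the beta-tubulins 3 of 7 were tested (median 0.51). *Tubb2a*, a near-identical neighbor of *Tubb2b* with which it can share reads, was past the fold at 222 and 508 CPM (2.29, interval 2.08 to 2.51), *Tubb5* stood at 384 and 547 CPM (1.42) and *Tubb4b* at 203 and 199 CPM (0.980). Of the glycerophosphodiester phosphodiesterase list 3 of 6 were tested (median 0.09), *Gdpd5* at 15 and 23.0 CPM (1.53, interval 1.01 to 2.31), *Gde1* at 41.4 and 44.0 CPM (1.06) and *Gdpd1* at 53.5 and 52.3 CPM (0.977). None of the 6 whey acidic protein genes in the matrices reached 50 UMIs, and *Slpi* had 1 normoxia and 12 hypoxia UMIs (ratio 20.7, interval 3.06 to 886).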

How the data were processed

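The authors counted UMIs per gene and cell barcode against mm10, with Cell Ranger 6.1.2 per the file headers (the paper names other versions), and deposited raw counts without normalization. A cell was kept here when it had between 200 and 4000 detected genes and no more than 5% of its UMIs from mitochondrial genes. The limit on mitochondrial UMIs was exceeded by 37.6% of normoxia and 13.2% of hypoxia cells. The paper gives 6000 genes in its methods, which was an alternative. Doublets were treated by the upper limit on genes alone.

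Log values after scaling each cell to 10000, restricted to 2000 variable genes without the 6 members, gave 30 components, 15 neighbors and 28 Leiden clusters at resolution 2 (python 3.11.15, scanpy 1.11.5, anndata 0.12.19, igraph 0.11.9, pandas 2.3.3, scipy 1.17.1, numpy 2.4.6, matplotlib 3.10.9). A cluster took a class name from the marker list with the largest share detected in at least 25% of its cells, and 5 clusters with 391 cells stayed unnamed. The reasons were a shallow median without own markers among the 10 leading genes, or leading genes of another class. A B cell-like cluster stayed unnamed because myeloid genes such as *Il1b* and *Tyrobp* were among its leading genes. Fewer than 3 markers would also have left a cluster unnamed, but no cluster fell under this rule. The arterial-like gate was at least 2 UMIs of *Gja5*, *Bmx* and *Dkk2*. The Vwf-high gate was at least 3 UMIs and 1000 CPM of *Vwf*. The aerocyte-like gate was at least 2 UMIs of *Car4*, *Ednrb*, *Fibin*, *Apln* and *Chst1*, and the general capillary-like gate the same of *Gpihbp1*, *Aplnr*, *Kit*, *Glp1r* and *Sema3c*, each with more UMIs than the other. *Plvap* was left out of the latter because it differed between the libraries. *Sema3c* was kept, although it also differed (1.67-fold higher in hypoxia EC-like cells) and had the highest r with *Ntrk2* there. The general capillary-like gate is thus not free of the library or of *Ntrk2*, and ratios without *Sema3c* are given above.

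The members, lists and gates were chosen with earlier results of these data known. The genes named are the members, the listed genes with at least 50 UMIs in EC-like cells and the 10 most correlated with *Ntrk2*. Genes outside that rule (*Ddx3y*, *Xist*, *Mapk3*, *Kdr*, *Plvap*, *Bdnf*, *Ntf3*, *Ntf5*, *Ntrk3*, *Ngfr*, *Slpi* and gate or cluster genes) were named after their values were seen. Some listed genes are counted in their list but not reported here by name. Levels, ratios and intervals at 95% are from summed counts, with 3 counts as the floor. Expected co-detection is the product of the 2 shares times the cells. The ratio intervals were tested on simulated Poisson counts with known ratios. Such counts follow the model of the intervals and hold no spread between cells or animals, so the test does not cover it.

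Alternatives were up to 6000 genes, up to 10% mitochondrial UMIs, a resolution of 1, the members among the variable genes, classes by marker gates, subtypes by cluster, median scaling, a mean over cells, thinning to 500 to 2000 UMIs and a minimum of 20 UMIs. Positions are from GENCODE for GRCm38 and promoters from RefSeq for GRCm38.p6.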

Additional observations from a re-analysis of the deposited data

Results flagged for a closer look

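*Mal* differed in direction between classes. Its hypoxia/normoxia ratio was 0.147 in AT2-like cells (22 UMIs in 6 normoxia cells, 4 in 8 hypoxia cells) and 41.7 in EC-like cells. Of the 22 UMIs, 17 lay in 1 normoxia cell. The difference between the ratios was not tested, because each condition has 1 library, and the AT2-like cells are few.

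Cells removed for more than 5% mitochondrial UMIs (835 normoxia, 107 hypoxia) were not used in the report and carried 5 members above their level in the normoxia cells removed for the same reason. *Ntrk2* stood at 478 CPM in the hypoxia cells against 20.6 in the normoxia cells, *Cdk19* at 698 against 55.6, *Wfdc1* at 119 against 28.9, *Tubb2b* at 50.3 against 5.56 and *Gdpd3* at 113 against 2.78. *Mal* stood at 18.9 against 34.5 CPM (ratio 0.547, interval 0.110 to 1.67), and over all 3032 cells its ratio was 4.94 (interval 3.90 to 6.27).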

How the results depend on the processing

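Of 164 alternative values over 26 results, 140 lay within the counting interval of the reported value (for a count, within 1.5 times it), 23 lay outside it and 1 turned from above 1 to below. Wide intervals hold large moves: the general capillary over aerocyte ratio of *Tubb2b*, 15.3, ran from 4.25 to 29.1 within its interval, and the hypoxia/normoxia ratio of *Mal*, 41.7, was 24.8 with up to 6000 genes. The co-detection of *Ntrk2* and *Gdpd3*, 1.00, was not apart from 1 and lay on either side of it, from 0.670 to 1.06. The one that turned was the co-detection of *Ntrk2* and *Tubb2b* in hypoxia EC-like cells, 1.33 with all UMIs and 0.907 after thinning to 1000 UMIs. The thinned value has an interval of 0.499 to 1.51, so it is not apart from 1. The summed ratio of the 6 members was 9.81 and 9.02 as a mean over cells. The share of hypoxia EC-like cells with an *Ntrk2* UMI was 67.3%, 80.3% at a resolution of 1 (where 376 hypoxia cells were EC-like), 49.8% thinned to 1000 and 27.2% thinned to 500 UMIs. The general capillary over aerocyte ratio of *Ntrk2* in hypoxia, 5.99, was 3.14 with up to 6000 genes and 3.28 without *Sema3c* in the gate (added after seeing the data). The hypoxia level of *Ntrk2* outside EC-like cells, 292 CPM, was 131 with up to 6000 genes, 418 at a resolution of 1 and 199 with the members among the variable genes. The number of listed genes past the fold was 2 at either minimum. At a resolution of 1 no *Tubb2b* UMI lay in hypoxia aerocyte-like cells, so its subtype ratio has no value there. No paired analysis was possible because there is only 1 library on each side, and for the same reason no replicate could be left out. The few cells outside the EC-like class in hypoxia (130) limit what can be said of other classes.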

Other observations

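The genes next to 2 members were read out after their values had been seen. *Amd1*, an enzyme of polyamine synthesis, is the nearest protein-coding gene upstream of *Cdk19*, on the opposite strand. It was measured at 34.6 CPM in the normoxia library against 164 CPM in the hypoxia library in EC-like cells, 4.75-fold (interval 3.85 to 5.90). *Ypel3*, the next protein-coding gene after *Gdpd3*, stood at 124 and 126 CPM (ratio 1.02, interval 0.872 to 1.19).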
